A study of Mus musculus with 6 samples.

Results

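The miRNA loci Mir338, Mir182, Mir183, Mir96, Mir219a-1 and Mir219a-2, together with Aatk, the protein-coding gene that hosts Mir338, were followed through small RNA-seq and RNA-seq of mouse Achilles tendon. They are 6 of the 2265 hairpin features counted in small RNA-seq and 1 of the 54189 lines counted in RNA-seq, and they were chosen by name because of high or low counts in the Dicer cKO library. The Dicer cKO counts of these 6 loci are therefore given as a description, and no test was made on them. RNA came from 4-week-old mice of 3 genotypes. Control mice carried floxed Dicer alleles (Dicer f/f) and no Cre. ScxHt mice carried the Cre knock-in at the Scx locus with intact Dicer alleles (ScxCre/+ Knock In:Dicer +/+). Dicer cKO mice carried both the knock-in and the floxed alleles (ScxCre/+ Knock In:Dicer f/f). Scx is a transcription factor of tendon and ligament cells, so Cre acts in cells with Scx expression, and cells of nerve, muscle or vessel within a tendon sample that never expressed Scx keep their Dicer alleles. Each assay had 1 library per genotype, and the labels give the same tendon sample for both assays of a genotype. There were no replicates, so every interval below is a 95% interval for counting error alone and no p-value was computed.

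DICER cuts hairpin precursors into mature miRNAs of about the length of the sequences printed here, and a mature miRNA recognises its targets mainly by its seed, the bases 2 to 8 from its 5′ end. MiR-338 and miR-219 are known from myelinating glia, above all from the maturation of oligodendrocytes, the myelin-forming cells of the central nervous system. MiR-183, miR-96 and miR-182 are transcribed as a cluster known from sensory cells such as photoreceptors, hair cells of the inner ear and sensory neurons. A tendon has no such sensory organ and no central myelin, but it is crossed by peripheral nerve fibres, whose myelin is made by Schwann cells.

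The mature sequences are shown because the loci are related through them, and the seed is in capitals in each. They were taken from RefSeq on GRCm38.p6, in which all 6 loci had an entry, and are written 5′ to 3′.
miR-338-3p: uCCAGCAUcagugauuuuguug
miR-338-5p: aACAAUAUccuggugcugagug
miR-3065-5p: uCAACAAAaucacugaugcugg
miR-182-5p: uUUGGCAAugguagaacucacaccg
miR-96-5p: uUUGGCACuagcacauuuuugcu
miR-183-5p: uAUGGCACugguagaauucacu
miR-219a-5p: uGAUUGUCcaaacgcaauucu
The seeds of miR-96-5p and miR-182-5p differed at 1 base (C8A, miR-96-5p first and positions counted from 1 at the 5′ end), and those of miR-96-5p and miR-183-5p at 1 base (U2A). Over their first 22 bases miR-182-5p and miR-183-5p were equal at 18. The only other mouse miRNA in the table with the seed of miR-96-5p was miR-1271-5p. No other mature miRNA had the seed of miR-338-3p, miR-182-5p, miR-183-5p or miR-219a-5p.

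Mir338 lies on the minus strand at chr11:120014765-120014862 (GRCm38), in intron 7 of the 3 protein-coding transcripts of Aatk (chr11:120007313-120047167, minus strand). Mir3065 lies on the other strand of the same place, at chr11:120014767-120014853, and miR-3065-5p is the reverse complement of miR-338-3p over 21 bases. Mir182 (chr6:30165918-30165992), Mir96 (chr6:30169446-30169551) and Mir183 (chr6:30169668-30169737) stand within 3820 bases on the minus strand of chromosome 6, outside any annotated gene, and Nrf1 and Ube2h are their nearest protein-coding genes. Mir219a-1 (chr17:34024983-34025092, minus strand) overlaps the long non-coding RNA gene Gm26940 and lies 302 bases from Ring1. Mir219a-2 (chr2:29845631-29845727, minus strand) lies 628 bases from Urm1 outside any protein-coding gene. Both Mir219a loci encode the same miR-219a-5p, so a read of that arm fits both of them. Counts were given per hairpin, and the 5p and 3p arms cannot be told apart.

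The small RNA-seq libraries held 10986541 counts (Control), 8437993 counts (ScxHt) and 8435829 counts (Dicer cKO), and the RNA-seq libraries 14959399 to 16244232. The 6 loci made up little of any library, with 55.1 CPM (counts per 1000000 counts of the library) in Control, 60 in ScxHt and 149 in Dicer cKO. The Dicer cKO sample also differed in the tissue markers. The summed level of 16 skeletal muscle genes was 63590, 36250 and 110500 CPM in Control, ScxHt and Dicer cKO, and that of 14 tendon fibroblast genes was 141700, 128700 and 82510 CPM. These sums rest largely on few genes. In Control, Ttn had 688745 of the 1032907 counts in the muscle sum and Col1a1 1261322 of the 2302069 in the tendon sum. The tendon sum was lower in ScxHt than in Control, although the median ratio of its genes was 1.28. All 14 tendon genes were detected in every library. Dicer1 itself had 1919, 2025 and 1621 counts, a ratio of Dicer cKO to Control of 0.877 (0.821 to 0.938), and the counts do not separate the floxed exon from the rest of the gene. In bulk tissue, fewer cells of a type and less RNA per cell cannot be told apart.

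Mir338 was the most abundant of the 6 loci in every library, with 354 counts in Control, 335 in ScxHt and 892 in Dicer cKO. In CPM these were 32.2 (29 to 35.8), 39.7 (35.6 to 44.2) and 105.7 (98.9 to 112.9), and the deposited RPKM values, counts divided by the length of the hairpin and the library total, were 328.8, 405.1 and 1079. Only the Dicer cKO library was high, while the Control and ScxHt intervals touched. Mir338 ranked 184 of the 634 features with reads in Control and 138 of the 579 in Dicer cKO. After scaling by DESeq2 size factors, which set the typical feature equal in both libraries, the ratio of Dicer cKO to Control was 2.89 (2.55 to 3.28), the ratio of Dicer cKO to ScxHt 2.66 (2.35 to 3.03) and the ratio of ScxHt to Control 1.07 (0.915 to 1.24). Among the 334 features above a mean of 15 normalized counts, only Mir1249 had a higher ratio of Dicer cKO to Control, and it rested on 16, 36 and 48 counts.

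Mir182 had 78 counts in Control, 60 in ScxHt and 168 in Dicer cKO. Its level was 7.1 CPM (5.61 to 8.86), 7.11 (5.43 to 9.15) and 19.9 (17 to 23.2) in that order. Mir183 had 60, 44 and 136 counts, or 5.46 (4.17 to 7.03), 5.22 (3.79 to 7) and 16.1 (13.5 to 19.1) CPM. For both loci the Control and ScxHt libraries lay together and the Dicer cKO library stood above them without overlap of the intervals. The ratio of Dicer cKO to Control was 2.47 (1.88 to 3.27) for Mir182 and 2.6 (1.9 to 3.58) for Mir183. Against ScxHt, the ratios were 2.8 (2.07 to 3.83) and 3.09 (2.19 to 4.45), and the ratios of ScxHt to Control were 0.867 (0.608 to 1.23) and 0.826 (0.547 to 1.24).

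Mir96, the middle locus of the cluster, was close to absent. It had 5 counts in Control, 1 in ScxHt and 0 in Dicer cKO. A count of 0 in the Dicer cKO library allows a level of up to 0.356 CPM, for counting error only, against 0.455 (0.148 to 1.06) in Control. These counts were under the minimum, so Mir96 was not read against the bounds. Its ratio of Dicer cKO to Control was 0 (0 to 1.25). This interval held 1, and its upper end lay below the ratios of 2.47 for Mir182 and 2.6 for Mir183. The few Mir96 counts were not highest in Dicer cKO, unlike those of Mir182 and Mir183.

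The Mir219a loci did not share the pattern of Mir338. Mir219a-1 had 56 counts in Control, 29 in ScxHt and 36 in Dicer cKO, or 5.1 (3.85 to 6.62), 3.44 (2.3 to 4.94) and 4.27 (2.99 to 5.91) CPM. Its intervals overlapped in all 3 libraries, with Control highest and ScxHt lowest. The ratio was 0.737 (0.471 to 1.14) for Dicer cKO to Control, 0.583 (0.359 to 0.929) for ScxHt to Control and 1.24 (0.74 to 2.1) for Dicer cKO to ScxHt. Mir219a-2 had 52, 37 and 21 counts, or 4.73 (3.54 to 6.21), 4.39 (3.09 to 6.04) and 2.49 (1.54 to 3.81) CPM. The Dicer cKO library was the lowest here, although its interval still touched those of the others. The ratio was 0.463 (0.265 to 0.782) for Dicer cKO to Control, 0.802 (0.511 to 1.25) for ScxHt to Control and 0.568 (0.316 to 0.995) for Dicer cKO to ScxHt.

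**Figure D1:**
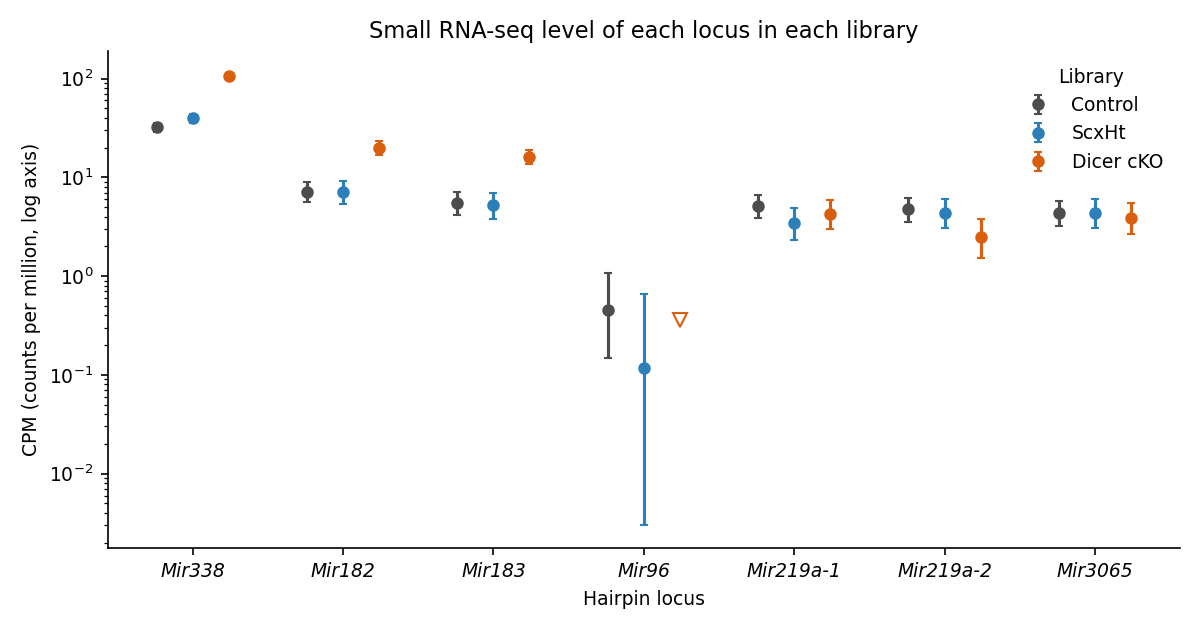
CPM (counts per 1000000, log axis) of the 6 loci and of Mir3065, which lies opposite Mir338, in the Control, ScxHt and Dicer cKO libraries; points are single libraries, bars are 95% Poisson intervals, and the open triangle marks the limit that 0 counts of Mir96 allow in Dicer cKO. Mir338, Mir182 and Mir183 stand at 105.7, 19.9 and 16.1 in Dicer cKO, above both other libraries, while Mir219a-1, Mir219a-2 and Mir3065 lie between 2.49 and 5.1 in every library.

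A ratio was taken as higher above an upper bound of 0.74 on the log2 scale (a ratio of 1.7 when rounded) and as lower below 0.60. In Dicer cKO against Control, 28 of the 334 features were higher (8.38%) and 14 were lower (4.19%). Mir338, Mir183 and Mir182 were the 2nd, 4th and 8th highest and Mir219a-2 the 8th lowest, ranks that the choice of the loci by their Dicer cKO values fixes in part. Mir219a-1 passed neither bound, and 1 of the 6 loci, Mir96, was under the minimum. At the upper bound Mir495 (24, 26 and 35 counts) lay just inside and Mir381 (3672, 2548 and 5337 counts) just outside, and at the lower bound Mir467d lay inside at 0.598 and Mir872 outside at 0.607. The whole interval exceeded the upper bound for Mir338, Mir182 and Mir183, as for 12 features in all. The interval of Mir219a-2 reached 0.782.

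ScxHt against Control does not hold the Dicer cKO library, but shares its Control library with the comparison above. In it 10 of 332 features were higher (3.01%) and 23 were lower (6.93%). Of the 5 loci above the minimum, none was higher and only Mir219a-1 was lower, at 0.583, with an interval that crossed 0.60. That call was lost with scaling by total counts (0.674) or by total counts without features above 1% of a library (0.625). Dicer cKO against ScxHt shares its Dicer cKO library with the values that chose the loci, and here 36 of 322 features were higher (11.2%) and 7 were lower (2.17%). Mir338, Mir182 and Mir183 were again among the higher ones and Mir219a-2 among the lower ones.

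**Figure D2:**
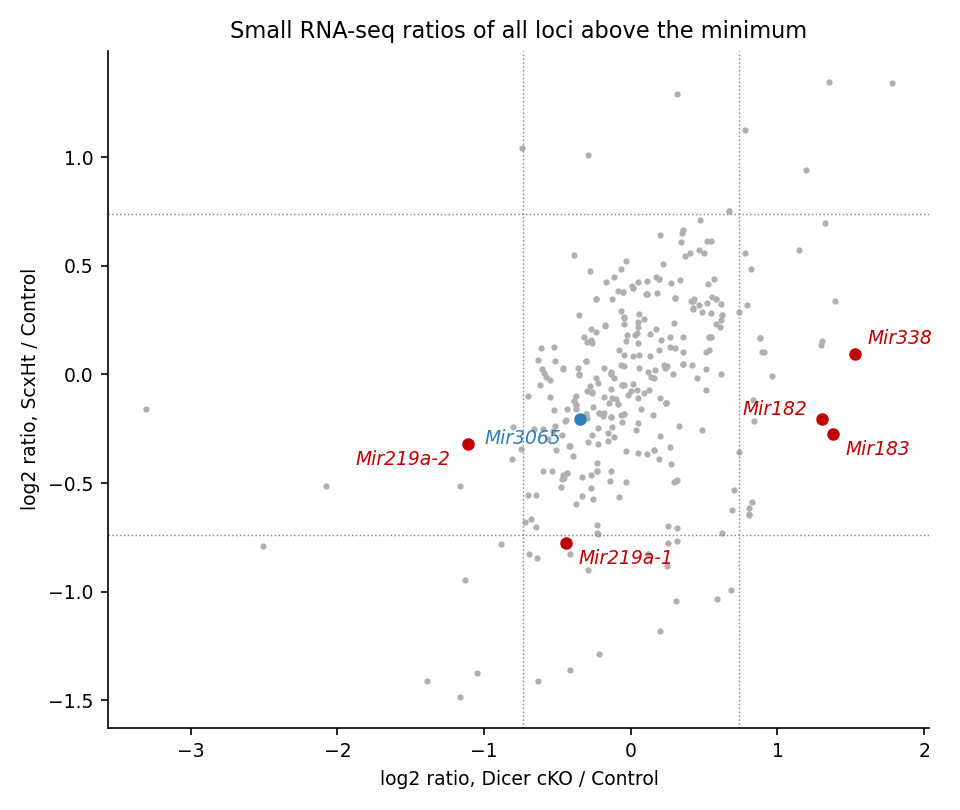
Each point is 1 of the small RNA-seq features above the minimum, with its log2 ratio of Dicer cKO to Control on the horizontal axis and of ScxHt to Control on the vertical axis; dotted lines mark the upper and the lower bound, the chosen loci are red and Mir3065 is blue. Mir338, Mir182 and Mir183 lie far to the right near a vertical value of 0, Mir219a-2 lies to the left, and Mir3065 lies within the main cloud.

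The ratio of 2 loci within 1 library does not depend on how libraries are scaled. Mir182 to Mir183 was 1.3 (0.917 to 1.85) in Control, 1.36 (0.909 to 2.06) in ScxHt and 1.24 (0.979 to 1.56) in Dicer cKO, so that the outer loci of the cluster kept nearly 1 proportion while their counts more than doubled. Mir338 to Mir182, loci on different chromosomes, was 4.54 (3.54 to 5.88), 5.58 (4.23 to 7.48) and 5.31 (4.5 to 6.3), and these intervals overlapped too. Mir338 to Mir219a-2 was 6.81 (5.08 to 9.29) in Control, 9.05 (6.44 to 13.1) in ScxHt and 42.5 (27.6 to 69) in Dicer cKO. Since Mir338 was chosen as high and Mir219a-2 as low in Dicer cKO, the wider ratio in that library is given as a description. Mir182 to Mir219a-2 differed the same way, from 1.5 (1.04 to 2.17) in Control and 1.62 (1.06 to 2.51) in ScxHt to 8 (5.07 to 13.3) in Dicer cKO.

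The 2 loci of miR-219a had a ratio of Mir219a-1 to Mir219a-2 of 1.08 (0.725 to 1.6) in Control, 0.784 (0.465 to 1.31) in ScxHt and 1.71 (0.974 to 3.09) in Dicer cKO. These intervals overlapped and each held 1. A read of the shared miR-219a-5p may have been counted at both loci, as at the 3 Mir9 loci, which all had 95, 77 and 98 counts, so the 2 counts are not independent. The lower Dicer cKO ratio of Mir219a-2 was accompanied by no call at Mir219a-1.

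Mir3065 gave a check of the strand. It had 48 counts in Control, 37 in ScxHt and 33 in Dicer cKO, and its ratio of Dicer cKO to Control was 0.788 (0.49 to 1.25). Mir338 to Mir3065 was 7.38 (5.44 to 10.2), 9.05 (6.44 to 13.1) and 27 (19.1 to 39.5) in Control, ScxHt and Dicer cKO. The added Dicer cKO reads of Mir338 were thus not counted on the opposite hairpin, although the 2 hairpins share 87 bases. Mir219b, opposite Mir219a-2, had 0 counts in every library, and Mir219c, opposite Mir219a-1, had 0, 1 and 0.

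**Figure D3:**
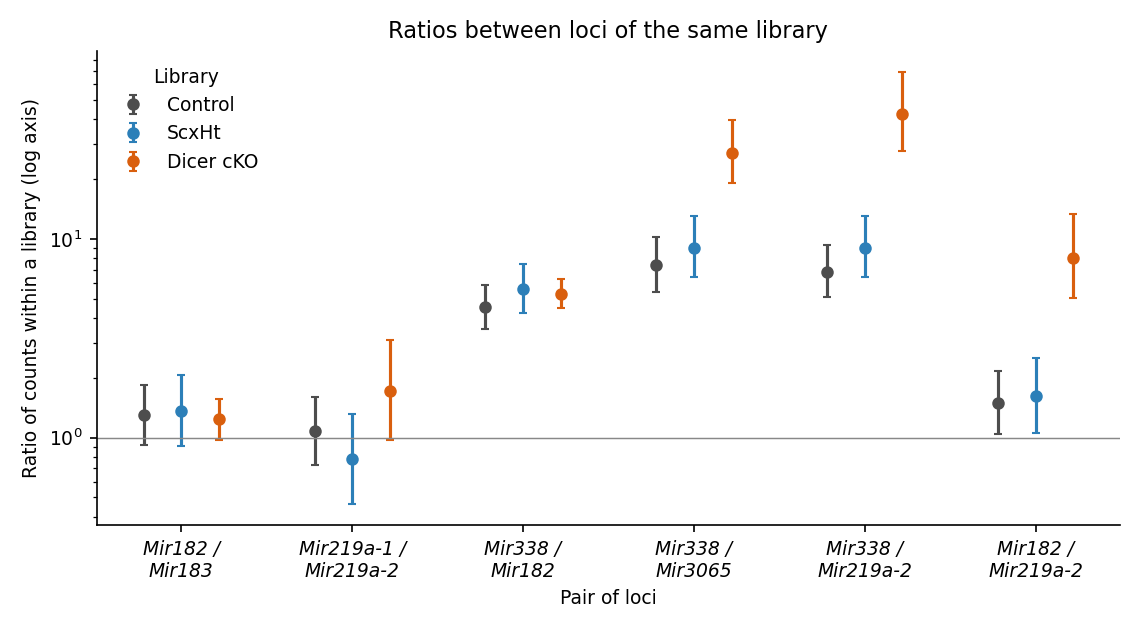
Ratios of the counts of 2 loci within the same library (log axis), for 6 pairs and the 3 libraries; bars are 95% counting intervals and the line marks 1. Mir182 / Mir183 and Mir338 / Mir182 stay level across libraries, while the 3 pairs that set Mir338 or Mir182 against Mir3065 or Mir219a-2 stand highest in Dicer cKO, at 27, 42.5 and 8.

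Compared per hairpin length, the order of levels in Control was Mir338, Mir182, Mir183, Mir219a-2, Mir219a-1 and Mir96, with RPKM values of 328.8, 94.7, 78, 48.8, 46.3 and 4.29. The same order held in ScxHt, at 405.1, 94.8, 74.5, 45.2, 31.2 and 1.12. In Dicer cKO the order was Mir338, Mir182, Mir183, Mir219a-1, Mir219a-2 and Mir96, at 1079, 265.5, 230.3, 38.8, 25.7 and 0. Mir338 stood apart from Mir182 in each library, with a per-length ratio of 3.47 (2.71 to 4.5) in Control. The neighbours Mir182 and Mir183 did not differ beyond counting error in any library, with per-length ratios of 1.21 (0.856 to 1.73), 1.27 (0.848 to 1.92) and 1.15 (0.914 to 1.46). The per-length intervals of Mir219a-1 to Mir219a-2 also held 1 in each library. They assume independent counts, however, and these loci may share reads. The gap between Mir183 and Mir219a-2 was 1.6 (1.08 to 2.36) in Control and 8.97 (5.64 to 15) in Dicer cKO.

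Likeness of pattern was measured as the distance between features in the plane of the log2 ratios of Dicer cKO and of ScxHt to Control, over 330 other features. These ratios include the values that chose the loci, so the neighbours are a description. Nearest to Mir338 was Mir483, with 1149, 1133 and 2477 counts, followed by Mir335, Mir19a, Mir182 and Mir183. Nearest to Mir182 was Mir183, at a distance of 0.101 against 0.340 for the next, Mir335. Nearest to Mir219a-2 was Mir184, with 82, 51 and 32 counts, followed by Mir196b, Mir34c, Mir106b and Mir29a. The pattern of Mir338 and Mir182 was thus found at loci not counted as neural as well.

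Aatk, which encodes a membrane-bound kinase abundant in the nervous system, differed less between libraries than the miRNA in its intron. It had 203 counts in Control, 186 in ScxHt and 236 in Dicer cKO, or 12.5 (10.8 to 14.3), 11.8 (10.2 to 13.6) and 15.8 (13.8 to 17.9) CPM, with RPKM values of 1.75, 1.65 and 2.2. The Dicer cKO library was the highest, and its interval overlapped that of Control and lay just above that of ScxHt. The ratio of Dicer cKO to Control was 1.21 (0.996 to 1.46), of ScxHt to Control 0.878 (0.716 to 1.08) and of Dicer cKO to ScxHt 1.4 (1.15 to 1.7). The intervals of Aatk and of Mir338 for Dicer cKO to Control, 0.996 to 1.46 against 2.55 to 3.28, did not overlap. Mir338 was chosen as high in Dicer cKO, and the ratios come from different assays, each with its own scaling. The contrast is therefore given as a description and was not tested. The hairpin itself was almost unseen in RNA-seq, where Mir338 had 0, 1 and 0 counts and Mir182, Mir183 and Mir96 had 0 in each library. In RNA-seq Mir219a-2 had 3, 0 and 0 counts and Mir219a-1 had 0, 2 and 1, while Mir219c, opposite Mir219a-1, had 0, 7 and 0.

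Across the 13504 RNA-seq genes above a mean of 50 normalized counts, 523 were higher in Dicer cKO than in Control (3.87%) and 563 were lower (4.17%). In ScxHt against Control 414 of 13563 were higher (3.05%) and 641 were lower (4.73%). Aatk passed no bound in either comparison. Its nearest genes by pattern, among 13391, were Clcn3, Gm10762, Kcnj8, Lrpprc and Ogdh, each with a ratio of Dicer cKO to Control of 1.2 to 1.21. The protein-coding genes next to the loci, taken from the annotation, passed no bound in Dicer cKO against Control either. Beside Mir338, Baiap2 was at 0.97 (0.835 to 1.13) and Cep131 at 1.28 (0.899 to 1.84). Beside the chromosome 6 cluster, Nrf1 was at 0.91 (0.805 to 1.03) and Ube2h at 0.83 (0.768 to 0.896). Beside Mir219a-2, Urm1 was at 1.59 (1.18 to 2.15) and Cercam at 0.755 (0.719 to 0.794), and beside Mir219a-1, Ring1 was at 0.899 (0.684 to 1.18) and H2-Ke6 at 1.18 (0.837 to 1.66). In ScxHt against Control, Urm1 was the only neighbour past a bound, at 1.71 (1.29 to 2.3).

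Markers of the cells in which these miRNAs are known were then read from the RNA-seq of the same samples. Of 20 genes of myelinating Schwann cells, 12 were above the minimum. Of these, 10 were higher in Dicer cKO than in Control (beside 3.87% of all genes) and none was lower (beside 4.17%). The median ratio was 5.71 beside 0.977 over all genes. Of the 12, Mal, Cldn19, Ugt8a and Gjc3 passed the minimum only through their Dicer cKO counts, and with no minimum the median of the genes with reads was 4.88. Ugt8a, the enzyme of galactosylceramide synthesis, had 8, 8 and 305 counts in Control, ScxHt and Dicer cKO, a ratio of Dicer cKO to Control of 39.6 (19.8 to 92.5). Mal, a myelin proteolipid, had 36, 19 and 390, at 11.3 (7.99 to 16.3), and Mbp, myelin basic protein, 195, 183 and 1403, at 7.47 (6.43 to 8.72). In each of these genes Dicer cKO alone was high. The lowest ratios were those of Nfasc at 1.13 and Pmp22 at 1.34. The summed level of all 20 genes was 280.9, 365.5 and 862.9 CPM. Only 8 of the genes were above the minimum in ScxHt against Control, so the gene sets differ. Of these 8, 2 were higher (beside 3.05% of all genes), none was lower (beside 4.73%) and the median was 1.05.

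Of 16 other Schwann cell genes, 6 were above the minimum and 2 of these were higher in Dicer cKO (beside 3.87% of all genes), with a median of 1.46. With no minimum the median of the genes with reads was 1.63. Cdh19, a cadherin of Schwann cells and their precursors, had 86, 83 and 271 counts, a ratio of 3.27 (2.56 to 4.22). Plekhb1 had 43, 12 and 79 counts, at 1.91 (1.3 to 2.83), and passed the minimum only through its Dicer cKO count. Sox10, the transcription factor that defines the lineage, was under the minimum with 9, 16 and 69 counts. S100b, a calcium-binding protein of glia, had 24, 53 and 56 counts and the neurotrophin receptor Ngfr 18, 55 and 49, both under the minimum against Control. Their ratios of Dicer cKO to ScxHt were 1.16 (0.785 to 1.73) and 0.982 (0.654 to 1.47), with intervals that held 1. Summed, these 16 genes stood at 147.9, 150 and 211.6 CPM. Many but not all Schwann cell markers were thus highest in the library in which Mir338, Mir182 and Mir183 were highest, and their part in the higher miRNA counts was not tested.

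Markers of the other cells were scarce. Of 18 genes of neurons and axons, 2 were above the minimum, Uchl1 at 2 (1.47 to 2.74) and Stmn2 at 1.19 (0.792 to 1.8), and the summed counts were 177, 235 and 271. Nefl, Syt1, Scn10a and Chat had 0 counts in every library. None of 8 oligodendrocyte genes was above the minimum, 5 had 0 counts throughout, and their summed counts were 4, 7 and 16. None of 8 genes of photoreceptors and hair cells was above it either, with summed counts of 27, 21 and 41. The defining markers of oligodendrocytes, photoreceptors and hair cells were thus at or near 0.

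Skeletal muscle markers also stood higher in Dicer cKO than in Control, for 11 of 16 genes (beside 3.87% of all genes) with a median of 1.88. Of the tendon fibroblast genes, 7 of 14 stood lower (beside 4.17%), with a median of 0.595. For ScxHt, the muscle list had 3 genes higher and 6 lower (beside 3.05% and 4.73%), with a median of 0.819, and the tendon list a median of 1.28. The muscle miRNAs had a median of 1.54 in Dicer cKO to Control, with 1 of 5 higher (Mir1a-1 at 1.75), beside 8.38% of all features. In ScxHt to Control their median was 0.64, with none higher and 1 lower (beside 3.01% and 6.93%). The list did not hold Mir1a-2, whose counts are nearly those of Mir1a-1, nor Mir133a-1 and Mir133a-2, which were at 1.84 each in Dicer cKO to Control and at 1.12 in ScxHt to Control. Mir206 had 310922, 134734 and 408434 counts. The part of tissue composition in the values of the 6 loci was not tested.

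**Figure D4:**
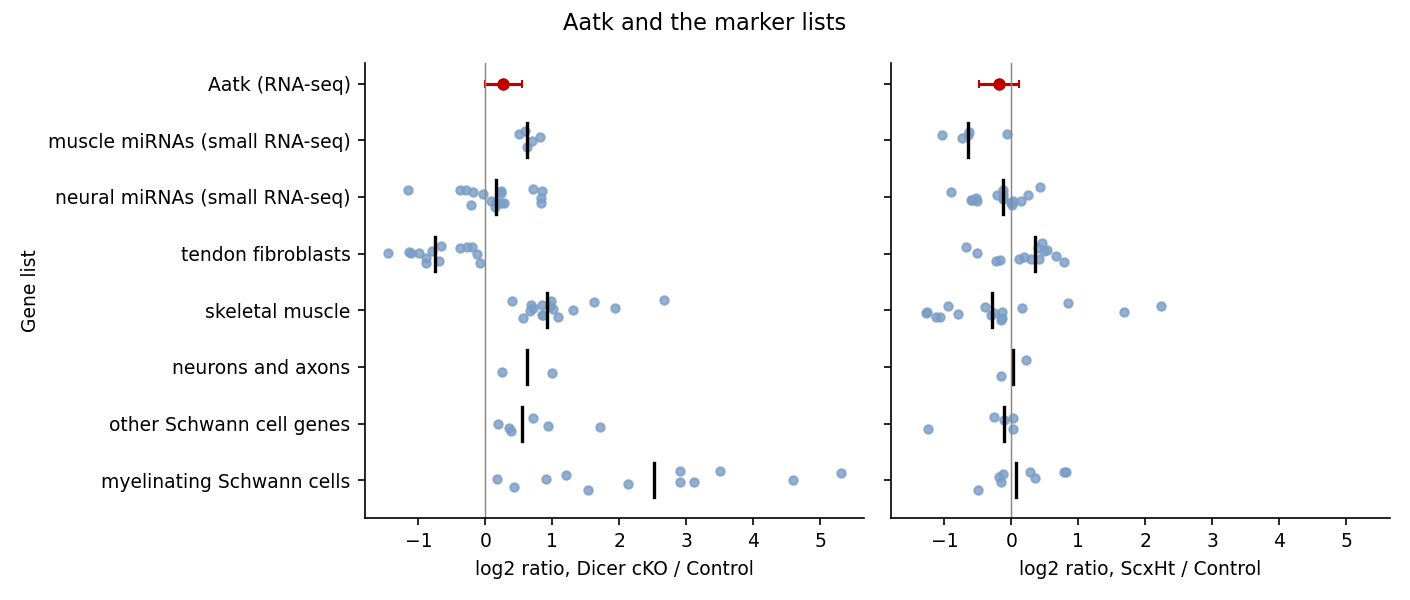
Log2 ratios of the genes above the minimum in each list, for Dicer cKO to Control and ScxHt to Control; blue points are genes, black bars are list medians, and the red point with its 95% counting interval is Aatk. In Dicer cKO the 12 myelinating Schwann cell genes above the minimum have a median ratio of 5.71. Some of these passed the minimum only through their Dicer cKO counts. The tendon fibroblast genes have a median of 0.595 in Dicer cKO and Aatk stands at 1.21. In ScxHt the Schwann cell medians are 1.05, over 8 genes, and 0.925, over 5 genes.

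Other miRNAs known from neural cells were listed to see whether they shared the pattern. Of 27 such loci in the table, 17 were above the minimum in Dicer cKO against Control, 3 were higher (beside 8.38% of all features) and 1 was lower (beside 4.19%), with a median of 1.12 beside 0.984 over all features. The ratio exceeded 1 for 11 of the 17, and the interval lay above 1 for 7 and below 1 for 2, beside 31.1% and 31.7% of all features. The shares of intervals were not matched for counts, and intervals are narrower at higher counts. Loci of the same miRNA were counted separately, such as the 3 Mir9 loci with equal counts, Mir128-1 and Mir128-2, Mir138-1 and Mir138-2, and Mir7-1 and Mir7-2. These counts of loci are therefore not counts of independent miRNAs. The higher ones were Mir128-1 at 1.79 (1.7 to 1.89), Mir128-2 at 1.78 (1.65 to 1.93) and Mir138-2 at 1.77 (1.01 to 3.18), of which Mir128 is also well known from muscle. The lower one was Mir184 at 0.447 (0.288 to 0.681). The 3 loci of Mir124a, a miRNA abundant in neurons, had 0 counts in each library, for which the limit of 3 counts is 0.356 CPM in Dicer cKO. For ScxHt to Control the median was 0.913, with none of 16 higher and 1 lower (beside 3.01% and 6.93% of all features).

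Genes whose 3′ UTR holds a match to the seed are the usual candidates for targets of a miRNA. Sites were searched in a single 3′ UTR per gene, the one with most bases in the annotation and on the strand of the transcript, as a match to the bases 2 to 8 followed by an A (8mer). The letters were ATGCTGGA for miR-338-3p, TTGCCAAA for miR-182-5p, GTGCCAAA for miR-96-5p, GTGCCATA for miR-183-5p and GACAATCA for miR-219a-5p. Among the 10947 genes with a 3′ UTR above the minimum in Dicer cKO against Control, 424 held the site of miR-338-3p (3.87%), 618 that of miR-182-5p (5.65%), 361 that of miR-96-5p (3.3%), 239 that of miR-183-5p (2.18%) and 220 that of miR-219a-5p (2.01%). The median ratio of Dicer cKO to Control was 0.966 for genes with a miR-338-3p site, 0.954 for miR-182-5p, 0.942 for miR-96-5p, 0.959 for miR-183-5p and 0.961 for miR-219a-5p, beside 0.975 over all 10947 genes. The medians in ScxHt against Control were 1.01, 0.993, 1, 0.99 and 0.994, beside 1.02. Each of these medians lay slightly below that of all genes. In Dicer cKO against Control 3.79% of all these genes were higher and 3.75% lower. Of the genes with a miR-338-3p site 16 were higher (3.77%) and 16 lower (3.77%), of those with a miR-182-5p site 17 (2.75%) and 26 (4.21%), and of those with a miR-96-5p site 9 (2.49%) and 17 (4.71%). For miR-183-5p these were 4 and 5 of 239, and for miR-219a-5p 13 (5.91%) and 9 (4.09%). The differences from all genes were not tested.

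Genes known from the literature as targets were listed separately. The printed stretches show how their 3′ UTRs match the seeds, with the site in capitals and the strand of the transcript (GRCm38, GENCODE vM21).
Foxo1, miR-182-5p, chr3:52350874-52350895, plus strand: gtttgctcTTGCCAAAagctgc
Foxo1, miR-96-5p, chr3:52347233-52347254, plus strand: acaatgaaGTGCCAAActcact
Foxo3, miR-182-5p, chr10:42186245-42186266, minus strand: aaaaccctTTGCCAAAtctgct
Fgf9, miR-182-5p, chr14:58109674-58109695, plus strand: ctccactgTTGCCAAActttgt
Ezr, miR-183-5p, chr17:6738980-6739001, minus strand: gctcacggGTGCCATActtttc
Zbtb18, miR-338-3p, chr1:177449150-177449171, plus strand: tttctgaaATGCTGGAttatct
Pdgfra, miR-219a-5p, chr5:75197705-75197726, plus strand: tttatgatGACAATCAaagctt
Of the 21 listed targets of miR-96, miR-182 or miR-183, 19 held an 8mer or 7mer site (the match without the final A) and 14 an 8mer. Of the 11 listed genes for miR-338 or miR-219, 9 held a site and 5 an 8mer. A match is a description of letters and does not show that the gene is regulated in tendon.

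Of the 21 targets of the cluster, 20 were above the minimum in Dicer cKO against Control, none was higher and 3 were lower (beside 4.17% of all genes), with a median ratio of 0.864 beside 0.977 over all genes. The interval lay below 1 for 14 of the 20, beside 28.4% of all 13504 genes. Intervals are narrower where counts are higher. The list and all genes were not matched for counts, so such shares are not like for like. The lowest were Egr1, an immediate-early transcription factor, with 2217, 635 and 772 counts and a ratio of 0.362 (0.333 to 0.393), the growth factor Fgf9 with 302, 247 and 155 counts at 0.533 (0.436 to 0.649), and the cadherin Celsr2 with 684, 423 and 363 counts at 0.551 (0.484 to 0.627). Egr1 and Celsr2 were lower in ScxHt as well, at 0.274 (0.251 to 0.3) and 0.593 (0.524 to 0.67). Celsr2, Myrip and Ryk held only miR-96-5p sites, and Mir96 itself was close to absent in every library. The forkhead factor Foxo1 had 2647, 3064 and 1750 counts, at 0.687 (0.646 to 0.73) in Dicer cKO to Control and 1.11 (1.05 to 1.17) in ScxHt to Control. Foxo3 had 2754, 3217 and 1792 counts, at 0.676 (0.636 to 0.717) and 1.12 (1.06 to 1.18). Ezr, which links actin to the membrane, had 456, 665 and 327 counts, at 0.745 (0.644 to 0.86) and 1.4 (1.24 to 1.58). The highest ratios in the list were 1.01 for Idh2 and 0.967 for both Clock and Odf2. The same list had, in ScxHt against Control, a median of 0.985, with none higher and 3 lower (beside 3.05% and 4.73% of all genes). Besides Egr1 and Celsr2 the lower ones held Idh2, at 0.557 (0.523 to 0.593). The interval lay below 1 for 8 genes and above 1 for 7, beside 23.7% and 26.4% of all genes. In Dicer cKO against ScxHt 1 gene was higher, Idh2 at 1.84 (1.73 to 1.96), and 1 lower, Ezr at 0.542 (0.473 to 0.619). Among all genes with a 3′ UTR these shares were 7.46% and 5.97%. The list's median there was 0.879. The tendon fibroblast genes had a median of 0.595 in Dicer cKO to Control, and the part of tissue composition in the target values was not tested.

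Of the 11 targets of miR-338 or miR-219, 7 were above the minimum. In Dicer cKO against Control none was higher and none lower (beside 3.87% and 4.17% of all genes), with a median of 0.884. Of the 7, Fgfr2 held only a miR-338-3p site, Pdgfra, Foxj3, Etv5 and Camk2g only a miR-219a-5p site, and Sox6 and Zbtb18 both. Mir338 was higher in Dicer cKO and Mir219a-2 lower, so this median joins genes of loci that differed in opposite directions. The repressor Zbtb18 had 424, 383 and 551 counts, the highest ratio at 1.35 (1.19 to 1.54), followed by Camk2g at 1.19 (1.09 to 1.31) and Sox6 at 1.08 (1.01 to 1.16). The lowest was the receptor Fgfr2 at 0.735 (0.638 to 0.846), followed by Pdgfra at 0.829 (0.789 to 0.87) and Etv5 at 0.876 (0.724 to 1.06). Pdgfra, a receptor of fibroblasts as well as of oligodendrocyte precursors, had 3651, 6025 and 2913 counts and was at 1.58 (1.52 to 1.65) in ScxHt to Control. The intervals lay above 1 for 3 of the 7 genes and below 1 for 3, beside 21.5% and 28.4% of all genes, again without matching for counts. In ScxHt against Control none was higher and none lower (beside 3.05% and 4.73%), with a median of 0.945.

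**Figure D5:**
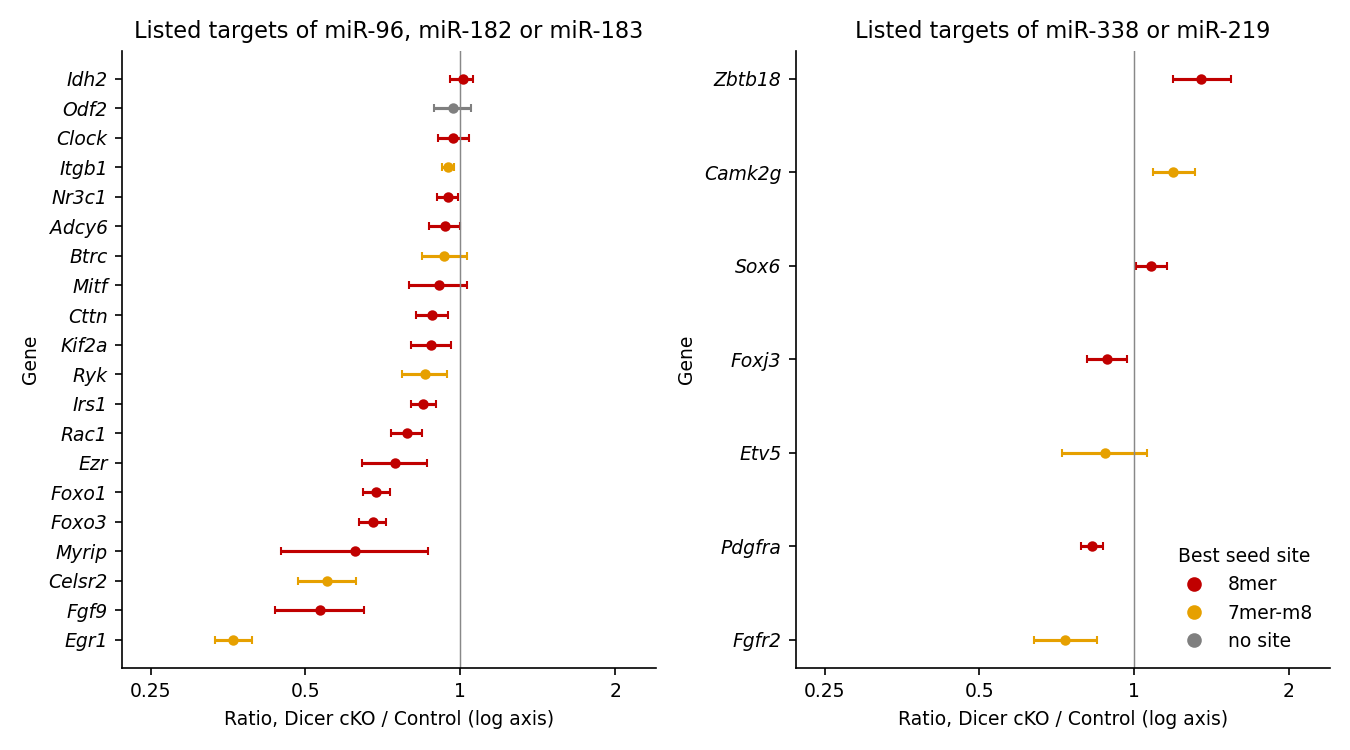
Ratio of Dicer cKO to Control (log axis) of each listed target above the minimum, for the cluster of miR-96, miR-182 and miR-183 and for miR-338 or miR-219; bars are 95% counting intervals and the colour gives the best seed site in the 3′ UTR. In the cluster's list, 14 of 20 intervals lie below 1, with Egr1 lowest at 0.362, and in the other list 3 lie below and 3 above 1, from Fgfr2 at 0.735 to Zbtb18 at 1.35. Intervals are narrower at higher counts.

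The genes of the miRNA machinery passed no bound in Dicer cKO against Control (beside 3.87% higher and 4.17% lower among all genes). Their median was 0.964 over 10 genes, beside 0.977 over all genes. The ratios ran from 0.651 (0.582 to 0.727) for Ago1, which binds mature miRNAs, to 1.38 (1.04 to 1.84) for Prkra, a partner of DICER. Drosha, which releases the hairpins in the nucleus, was at 1.02 (0.925 to 1.12), and Xpo5, which exports them, at 0.79 (0.699 to 0.894). In ScxHt against Control 1 of the 10 was higher, Prkra at 1.71 (1.32 to 2.24), and none was lower (beside 3.05% and 4.73% of all genes). The median there was 1.07.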

How the data were processed

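RNA-seq and small RNA-seq were made by the authors from total RNA of 4-week Achilles tendon, with 1 library per genotype. The authors trimmed the reads, mapped them to GRCm38/mm10 with TopHat and Bowtie2 and counted them with HTSeq (tools per the labels; versions, annotation and strand setting are not given in the sources used here), and the deposited counts are not normalized. The deposited RPKM values were made by the authors from counts, length and library total. Of 328 small RNA features with over 50 counts, 41 share their 3 counts with another feature.

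Counts of a pair of libraries were divided by DESeq2 1.42.0 size factors (R 4.3.3). Ratios carry 95% Clopper-Pearson intervals and levels Poisson intervals (scipy 1.17.1). Features above a mean of 15 (small RNA-seq) or 50 (RNA-seq) normalized counts were read against bounds of 0.74 on the log2 scale and a ratio of 0.60, and a count of 0 was given a limit of 3 counts. The code was tested on simulated data. TMM scaling (edgeR 4.0.16), totals, other minima and bounds, and a pseudocount of 1 were tried as alternatives. Sequences and positions came from RefSeq and GENCODE vM21 on GRCm38. The members and lists were chosen with earlier results of these data known. Named were all members, features at their loci, the 3 highest and lowest of a list, the 5 nearest features to a member, and features at the bounds. Other listed genes, such as Foxo1, Foxo3, Ezr, Sox10, S100b, Ngfr, Mir206, Mir133a-1, Drosha and Xpo5, were named after their values were seen. Some genes that this rule would name are not reported here.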

Additional observations from a re-analysis of the deposited data

How the results depend on the processing

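No paired analysis was possible because each genotype had 1 library per assay, and no library could be left out for the same reason. Scaling by total counts shifted all small RNA-seq log2 ratios by 0.18 in Dicer cKO to Control and by 0.21 in ScxHt to Control, and total counts without features above 1% by 0.12 and 0.10. Over the 4 other scalings and a pseudocount of 1, the ratio of Dicer cKO to Control ran from 2.88 to 3.28 for Mir338 (3.28 with total counts), 2.45 to 2.81 for Mir182, 2.57 to 2.95 for Mir183, 0.742 to 0.837 for Mir219a-1, 0.473 to 0.526 for Mir219a-2 and 1.21 to 1.26 for Aatk. All stayed on the same side of both bounds except Mir219a-1 in ScxHt to Control, which was at 0.674 with total counts and 0.625 without features above 1%. The median of the listed neural miRNAs in Dicer cKO to Control was 1.27 with total counts and 1.22 without features above 1%, and in ScxHt to Control 1.06 with total counts.

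Counts of features past the bounds moved by over 1.5 times as follows, higher first. With total counts, small RNA-seq gave 46 and 9 in Dicer cKO to Control and 25 and 11 in ScxHt to Control (14 lower without features above 1%), and RNA-seq 647 higher in ScxHt to Control. With a minimum of 5, small RNA-seq gave 25 lower in Dicer cKO to Control, 29 and 43 in ScxHt to Control and 55 and 33 in Dicer cKO to ScxHt, and with a minimum of 10 RNA-seq gave 1563 and 1434, and 1235 and 1608 for ScxHt. With no minimum these were 140 and 191, 163 and 191, 154 and 179 in small RNA-seq and 5392 and 5495, 5205 and 5552 in RNA-seq. With bounds of 2 and 0.5 they were 11 and 9, 6 and 9, 23 and 2 in small RNA-seq and 215 and 216, 124 and 291 in RNA-seq. With the whole interval past the bounds they were 12 and 6, 0 and 4, 16 and 1 in small RNA-seq and 164 and 184, 73 and 270 in RNA-seq. With 7mer sites added, the median of every group of genes with a seed site stayed within 0.1 on the log2 scale. At this depth Mir219a-2 rested on 52 and 21 counts in Control and Dicer cKO, and the spread between mice is unknown.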
